A study of Mus musculus with 21 samples.

Results

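Glycolysis was examined through 36 genes. They encode transporters that carry glucose in and lactate out, and the enzymes between glucose and lactate with their isozymes. They also encode the enzymes that make and remove fructose bisphosphates, and the kinases and the E1 subunit that govern the use of pyruvate in mitochondria. The genes were taken by symbol from a list of the pathway; the rule used no measured value, but the list was drawn up with earlier results of these data known. They are 36 of the 24028 genes of the count table, and all 36 passed the filter on low counts that left 15792 genes for testing. The isozymes typical of skeletal muscle or heart (Slc2a4, Pfkm, Pfkfb1, Fbp2, Pgam2 and Eno3; 6 genes) were kept apart from the other 30. For Fbp1, Fbp2 and Pgam2 only 5, 4 and 2 of the 7 vehicle tumours reached the count level of the filter, so that these genes passed it mainly through treated tumours.

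Polyadenylated RNA had been sequenced from mouse mammary tumours in 3 groups of 7. The relapse group held tumours treated with BYL719 and labelled as relapsed, the stable group held tumours treated with BYL719 and labelled as stable, and the vehicle group held tumours of mice given DMSO. BYL719 is alpelisib, an inhibitor of the alpha isoform of PI3K. All 3 groups had the same genotype, WAP-Cre/PIK3CA-H1047R: Cre recombinase from the promoter of the whey acidic protein gene, which is active in secretory mammary epithelium, and a human PIK3CA carrying the activating H1047R change. The design text calls the treated groups "Responding" and "Stable", and the sample labels, followed here, call them relapse and stable. The labels used here give no age, dose or time of collection.

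Glycolysis splits a glucose into 2 pyruvates in the cytosol, and tumours commonly turn much of that pyruvate into lactate. PI3K signalling through AKT is known to bring glucose transporters to the cell surface and to raise hexokinase and phosphofructokinase activity. Several steps are carried out by isozymes from different genes. Skeletal muscle uses its own phosphoglycerate mutase, enolase and phosphofructokinase, while proliferating epithelium relies mainly on the broadly expressed forms.

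Total counts per tumour were 17722622 to 21431465 in relapse, 13337848 to 24648463 in stable and 21043399 to 24873844 in vehicle tumours. A code in the sample titles had 7 values in relapse, 4 in stable and 3 in vehicle tumours, and 2 of them occurred in both treated groups. What a code stands for is not explained, and tumours with the same code, which carry different suffixes, may come from the same mouse. In that case they are not independent. The p-values then reflect only the spread among these tumours and may be too small. Luminal epithelial markers (Krt8, Krt18, Krt19, Epcam, Cdh1, Esr1 and Elf5) were detected in every tumour, with sums of 1656 to 3502 CPM (counts relative to the normalized library total) in relapse, 1786 to 4330 in stable and 1960 to 4024 in vehicle tumours. Vehicle 2, 6 and 7 stood apart from the other tumours: their summed level of 10 basal and myoepithelial markers was 17690, 23523 and 10824 CPM, against 1279 to 5733 in the other 4 vehicle tumours. The smooth muscle contractile genes Cnn1, Acta2, Myh11, Tagln and Mylk, and Oxtr, were each higher in these 3 than in the other 4. Krt14 went the other way, with 85.0, 172 and 342 CPM against 771 to 2507, and Krt5, Krt17 and Trp63 overlapped. Results below are given with and without vehicle 2, 6 and 7 where the call changed. Stable 1 also stood apart. It had the lowest sum of the 10 basal and myoepithelial markers (247 CPM) and the highest luminal sum (4330 CPM) of all tumours. Its Krt5 was 9.56 CPM, against at least 113 in every other tumour. Of the luminal markers, its Krt8 (999 CPM) and Krt18 were the highest of all tumours and its Krt19 and Esr1 the lowest. In bulk tissue, fewer cells of a type and less RNA per cell cannot be told apart.

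In relapse tumours 3 of the 36 genes rose and 1 fell against vehicle, counting a gene as called at an adjusted p under 0.05 in the quasi-likelihood test of edgeR. The 3 that rose were muscle isozymes (Pgam2, Eno3 and Pfkfb1), and the 1 that fell was Pfkp, the platelet-type phosphofructokinase. Over all genes 11.2% were called in this comparison, 5.42% higher and 5.8% lower, so that 4 of 36 is close to the share of all genes. In stable tumours 3 of the 36 rose and 4 fell against vehicle: the same 3 muscle isozymes were higher, and Pfkp, the glucose transporters Slc2a1 and Slc2a4 and the bisphosphate regulator Pfkfb3 were lower. The share over all genes was 15.1%, with 6.9% higher and 8.16% lower. These were 856 higher and 916 lower genes in relapse minus vehicle, and 1090 higher and 1288 lower in stable minus vehicle; with upper quartile scaling they were 953 and 673, and 1294 and 1032. Between relapse and stable tumours no member was called, and neither was any other gene (0%, with 0% in each direction) at an adjusted p under 0.05 in edgeR; 4 members had an unadjusted p under 0.05, as did 751 of all genes, and the Wald test of DESeq2 called 0 members and 6 genes.

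Split by class, the 6 muscle isozymes had median log2 fold changes of 1.05 in relapse minus vehicle, 0.54 in stable minus vehicle and 1.13 in relapse minus stable. The other 30 had medians of -0.19, -0.30 and 0.06. Over all genes tested the medians were -0.02, -0.005 and -0.01. Of the 30 other members, 0 rose and 1 fell in relapse tumours, and 0 rose and 3 fell in stable tumours. Both comparisons with vehicle use the same 7 vehicle tumours.

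**Figure D1:**
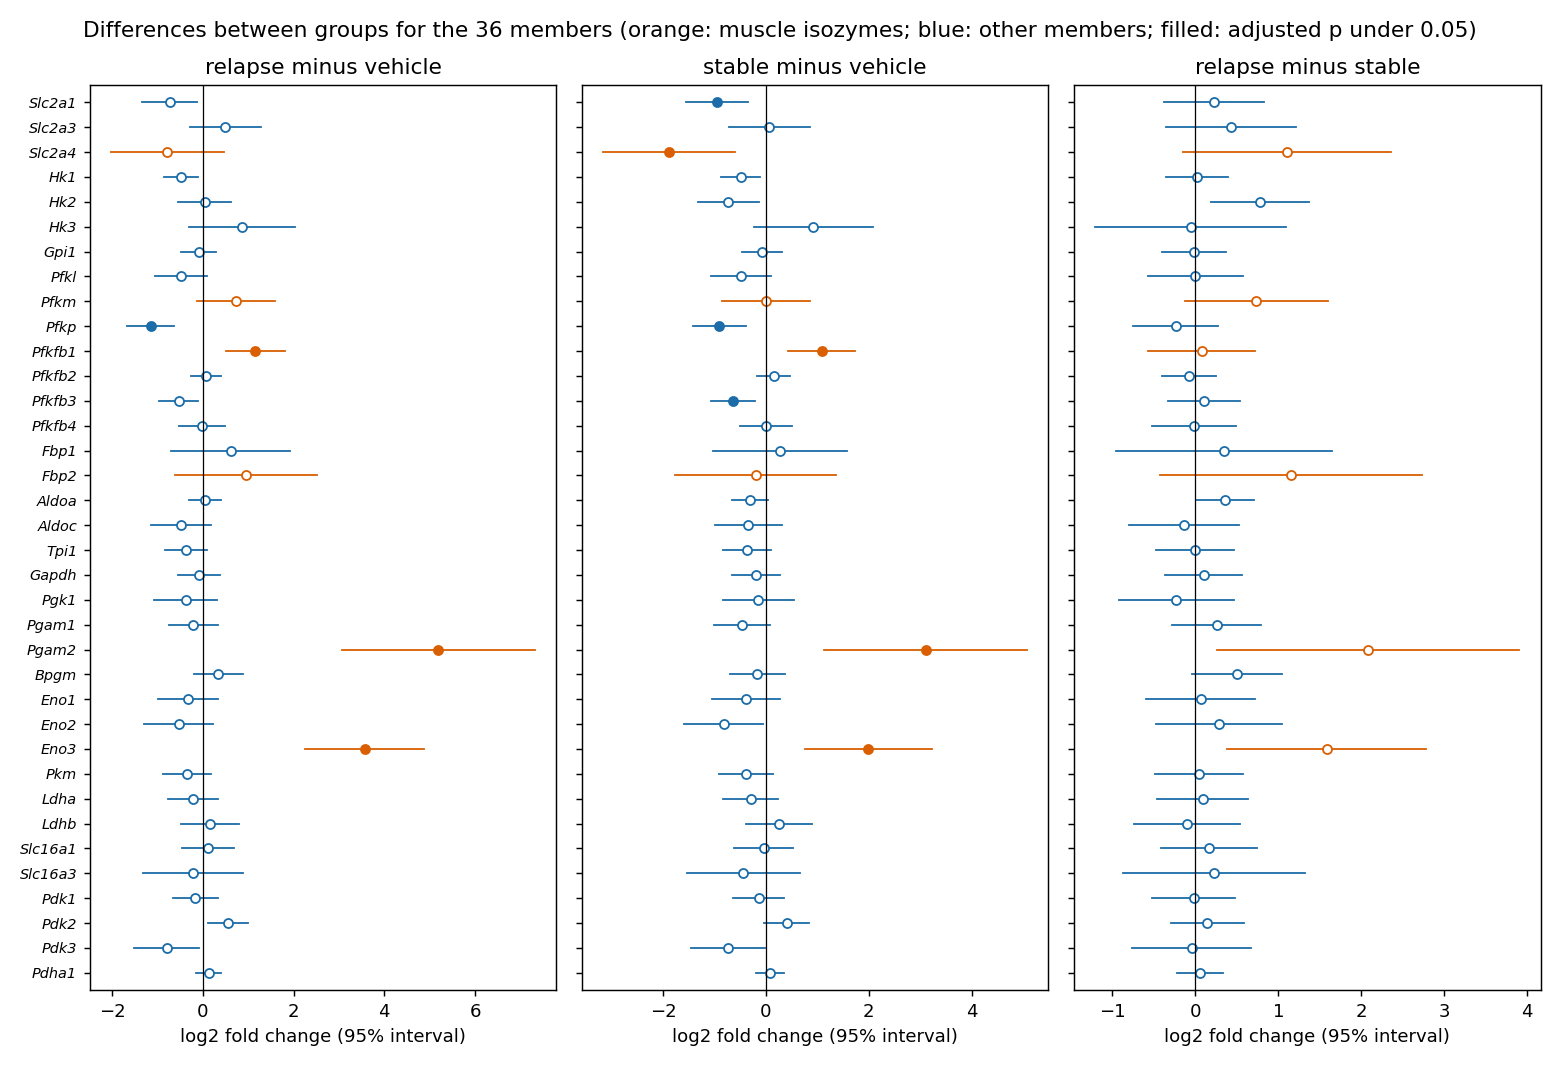
Log2 fold changes (x axis, with 95% intervals) of the 36 genes, 1 per row, in relapse minus vehicle, stable minus vehicle and relapse minus stable. Orange points are the 6 muscle isozymes and filled points passed an adjusted p under 0.05: Pgam2 and Eno3 lie farthest to the right in both comparisons with vehicle, and no point is filled in relapse minus stable.

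Pgam2 encodes the muscle form of phosphoglycerate mutase, which moves the phosphate of 3-phosphoglycerate to the next carbon. In relapse tumours 1 to 7 it had 55.1, 33.7, 28.1, 0.15, 11.2, 21.6 and 13.1 CPM. Stable tumours 1 to 7 had 2.56, 0.75, 0.93, 4.95, 21.1, 4.68 and 3.41 CPM. Vehicle tumours 1 to 7 had 0.23, 0, 0.24, 1.87, 1.65, 0.19 and 0.21 CPM; the 0 in vehicle 2 allows up to 3 counts, or 0.14 CPM, by counting error alone. All relapse tumours except relapse 4 lay above every vehicle tumour, relapse 4 lay among the vehicle tumours, and stable 5 was the only stable tumour in the range of the other relapse tumours. The log2 fold change was 5.19 ± 1.02 (SE) in relapse minus vehicle, with an edgeR adjusted p of 0.00495, and 3.11 ± 0.95 in stable minus vehicle, with an adjusted p of 0.0333. The first was called in 22 of 23 alternatives, the exception being limma voom with an adjusted p of 0.0809. Without stable 5 the value for stable tumours was 2.18 with an edgeR adjusted p of 0.0927, and without vehicle 2, 6 and 7 it was 2.46 with an adjusted p of 0.187. It was also lost without vehicle 1, 2, 3, 6 or 7 in turn, with counts summed per title code (3.52, edgeR adjusted p = 0.131) and in limma voom with that code as a random effect (3.37, adjusted p = 0.268), and was kept in 12 of 23 alternatives. Because vehicle tumours held at most 43 counts of Pgam2, these fold changes depend on small numbers.

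Eno3 encodes the muscle form of enolase, the enzyme that yields phosphoenolpyruvate. Relapse tumours 1 to 7 had 123, 67.0, 67.4, 4.39, 28.8, 47.9 and 28.6 CPM. Stable tumours 1 to 7 had 12.5, 5.00, 6.54, 10.5, 65.7, 14.3 and 8.28 CPM, and vehicle tumours 1 to 7 had 2.65, 4.48, 2.37, 5.22, 5.36, 5.23 and 5.59 CPM. The pattern over tumours was that of Pgam2, with relapse 4 at the vehicle level and stable 5 at the level of relapse 2 and 3. Its relapse and vehicle ranges overlapped only through relapse 4. Eno3 rose by 3.57 ± 0.63 (log2, SE) in relapse minus vehicle with an edgeR adjusted p of 0.00261, and this call was kept in all 23 alternative analyses. In stable minus vehicle it rose by 1.99 ± 0.59 with an edgeR adjusted p of 0.0300; it was 1.11 with an adjusted p of 0.109 without stable 5, and 2.18 with an adjusted p of 0.113 without vehicle 2, 6 and 7. This call, kept in 15 of 23 alternatives, was also lost without vehicle 2, 3 or 6 in turn, with counts summed per title code (2.44, edgeR adjusted p = 0.147) and in limma voom with that code as a random effect (1.48, adjusted p = 0.228). Between relapse and stable tumours the differences were 1.58 ± 0.58 for Eno3 and 2.08 ± 0.87 for Pgam2, both with an edgeR adjusted p of 0.990.

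The promoters of these 2 genes are shown because the genes moved together across the tumours. The windows run from 250 bases before to 50 bases after a RefSeq transcription start site, are written 5′ to 3′ on the gene's strand, and come from the RefSeq promoter table of GRCm38.p6, the assembly of mm10. Capitals mark CAGCTG, an E-box letter sequence that myogenic factors of the MyoD family are known to bind, searched on both strands, which for this palindrome are the same.
Pgam2 (chr11:5803747-5804046, minus strand): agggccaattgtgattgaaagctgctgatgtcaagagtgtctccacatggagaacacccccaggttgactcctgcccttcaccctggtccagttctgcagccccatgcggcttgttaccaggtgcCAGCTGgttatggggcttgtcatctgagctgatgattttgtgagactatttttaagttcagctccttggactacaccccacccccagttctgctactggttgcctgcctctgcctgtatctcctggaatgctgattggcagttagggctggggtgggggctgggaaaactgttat
Eno3 (chr11:70656926-70657225, plus strand): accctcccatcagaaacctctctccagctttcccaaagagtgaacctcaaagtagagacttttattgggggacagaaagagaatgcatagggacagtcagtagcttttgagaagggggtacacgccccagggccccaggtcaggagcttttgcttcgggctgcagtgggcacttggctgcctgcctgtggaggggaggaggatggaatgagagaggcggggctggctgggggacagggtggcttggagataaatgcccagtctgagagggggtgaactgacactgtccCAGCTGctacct
The match begins 125 bases before the start site in Pgam2 and 38 bases after it in Eno3. CAGCTG stood in a window of 9 of the 34 members with a window in the table, and in 18.3% of 27025 genes, so that holding it is common in windows of this length. The other 7 were Aldoa, Fbp2, Gpi1, Pdk1, Pfkfb1, Pfkfb2 and Pkm, of which Pfkfb1 rose and the rest were not called. A match is a description of letters in a window and not a site shown to be bound.

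The summed level of 15 skeletal muscle markers (among them Ckm, Acta1, Myh4 and Mylpf) moved with Pgam2 and Eno3. It was 26825, 15391, 16313, 273, 7831, 9661 and 9459 CPM in relapse tumours 1 to 7. In stable tumours 1 to 7 it was 1121, 457, 1020, 3671, 18166, 2592 and 1956 CPM, and in vehicle tumours it ranged from 246 to 1287 CPM. Relapse 4, with 0.15 CPM of Pgam2, had a marker sum in the vehicle range, and stable 5 had the second highest sum of all tumours. Of the 15 markers, 14 rose in relapse minus vehicle and 9 in stable minus vehicle, and 0 were called in relapse minus stable (edgeR, adjusted p under 0.05). Ckm, Myl1 and Tnnc2 were at 0 in 1 vehicle tumour each and no marker was at 0 in a treated tumour. The part of skeletal muscle RNA in the levels of the muscle isozymes was not tested.

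**Figure D2:**
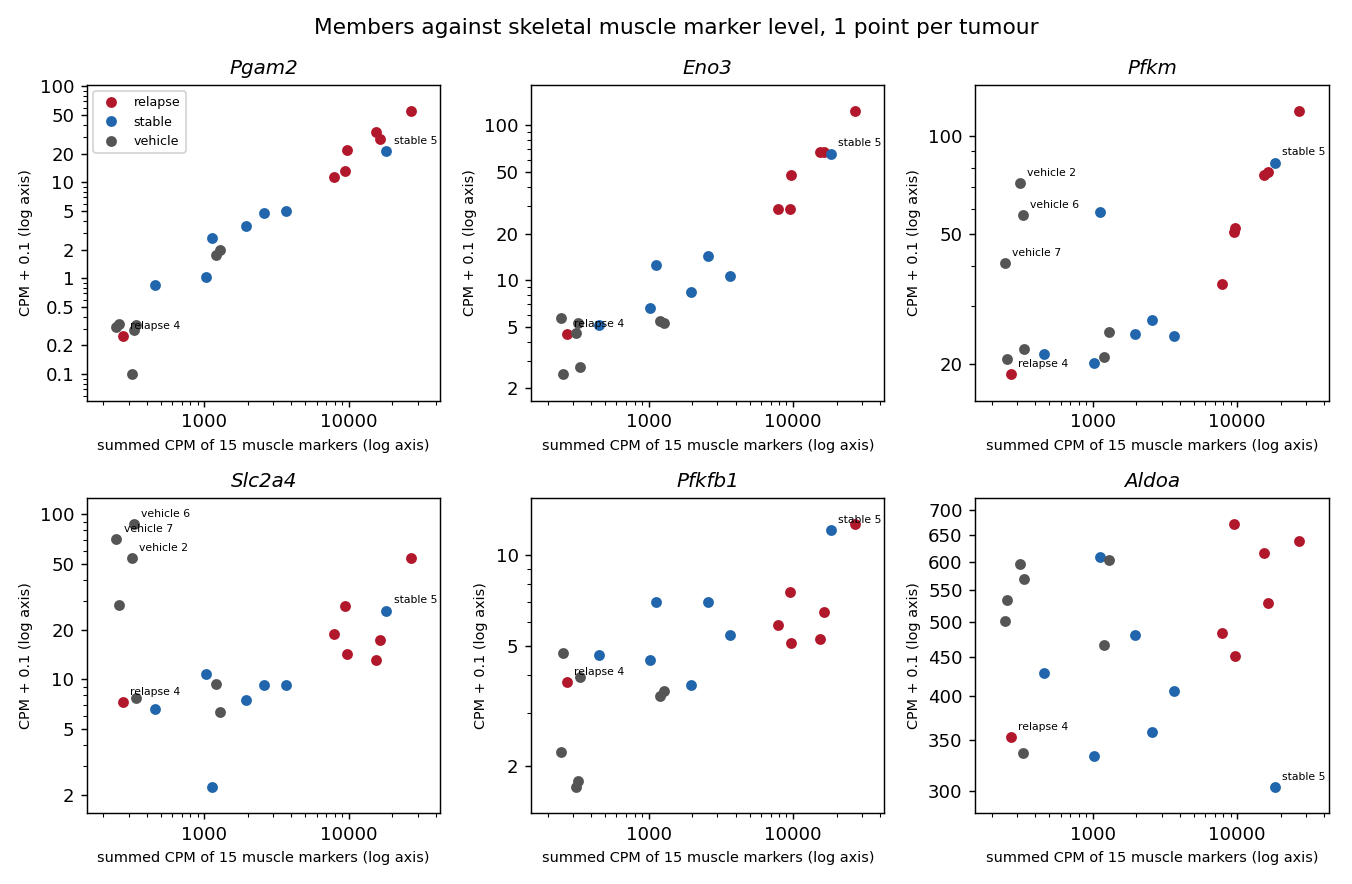
Level of 6 members in each tumour (y axis, CPM + 0.1, log axis) against the summed CPM of 15 skeletal muscle markers (x axis, log axis), coloured by group. Pgam2 and Eno3 are highest where the marker sum is highest, with relapse 4 at the low end and stable 5 at the high end, while Slc2a4 and Pfkm are also high in vehicle 2, 6 and 7, where the marker sum is 246 to 327 CPM.

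Pfkm, the muscle phosphofructokinase, catalyses the committed step of glycolysis in muscle. It had 18.5 to 119 CPM in relapse tumours with a median of 52.3, 20.05 to 83.0 in stable tumours with a median of 24.6, and 20.6 to 71.8 in vehicle tumours with a median of 24.9. The groups overlapped widely. Relapse 1, 2 and 3 and stable 5, the 4 tumours with the highest muscle marker sums, had the 4 highest levels of Pfkm, and stable 1 and vehicle 2, 6 and 7 had 58.5, 71.8, 57.2 and 40.8 CPM with marker sums of 1121, 315, 327 and 246 CPM. The difference was 0.74 ± 0.41 in relapse minus vehicle and 0.004 ± 0.41 in stable minus vehicle, and neither passed (edgeR adjusted p of 0.257 and 0.996).

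Pfkfb1 encodes liver and muscle forms of the bifunctional enzyme that makes and removes fructose 2,6-bisphosphate, the strongest activator of phosphofructokinase. Relapse tumours had 3.69 to 12.6 CPM with a median of 5.76, stable tumours 3.60 to 12 with a median of 5.33, and vehicle tumours 1.60 to 4.64 with a median of 3.30. The 2 highest values were those of relapse 1 and stable 5, and vehicle 2, 6 and 7 were the 3 lowest of all tumours with 1.60, 1.68 and 2.13 CPM. All 7 relapse and all 7 stable tumours lay above the vehicle median. Pfkfb1 rose by 1.16 ± 0.31 in relapse minus vehicle and by 1.08 ± 0.31 in stable minus vehicle (edgeR adjusted p of 0.0224 and 0.0269). Without vehicle 2, 6 and 7 the values were 0.80 and 0.73, with edgeR adjusted p of 0.184 and 0.208, and without stable 5 the second was 0.84 with an adjusted p of 0.0591. The calls were kept in 17 and 16 of 23 alternatives; both were lost without vehicle 2, 6 or 7 in turn and with counts summed per title code (edgeR adjusted p of 0.119 and 0.145), and the first also without relapse 1.

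Slc2a4 encodes GLUT4, the insulin-regulated glucose transporter of muscle and fat. It had 7.23 to 54.6 CPM in relapse tumours with a median of 17.2, 2.13 to 26 in stable tumours with a median of 9.10, and 6.27 to 87.3 in vehicle tumours with a median of 28.1. The 3 highest vehicle values were 54.0, 87.3 and 70.4 CPM in vehicle 2, 6 and 7. In these tumours 7 adipocyte markers summed to 46.4, 72.8 and 109 CPM, against 59.6 to 558 CPM in the other 4 vehicle tumours. The part of fat in these levels was not tested. The groups overlapped, and the highest treated value was that of relapse 1. Slc2a4 fell by 1.89 ± 0.61 in stable minus vehicle (edgeR adjusted p = 0.0430), a call kept in 8 of 23 alternatives, and the difference was -0.32 with an adjusted p of 0.780 without those 3 tumours. Of 14 fits that left out 1 tumour, only those without stable 5 or vehicle 1, 3, 4 or 5 kept the call. In relapse minus vehicle it was -0.78 ± 0.60 (edgeR adjusted p = 0.422).

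Fbp2, the muscle fructose bisphosphatase, which works against phosphofructokinase, had 2.80 to 24.0 CPM in relapse, 2.87 to 6.28 in stable and 0.23 to 17.1 in vehicle tumours. The medians were 7.39, 4.74 and 1.89 CPM, with vehicle 2, 6 and 7 at 0.23 to 0.27 CPM. No difference between groups passed the test. Fbp1, the liver form, had medians of 2.39, 2.11 and 2.10 CPM in the same order and no called difference.

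**Figure D3:**
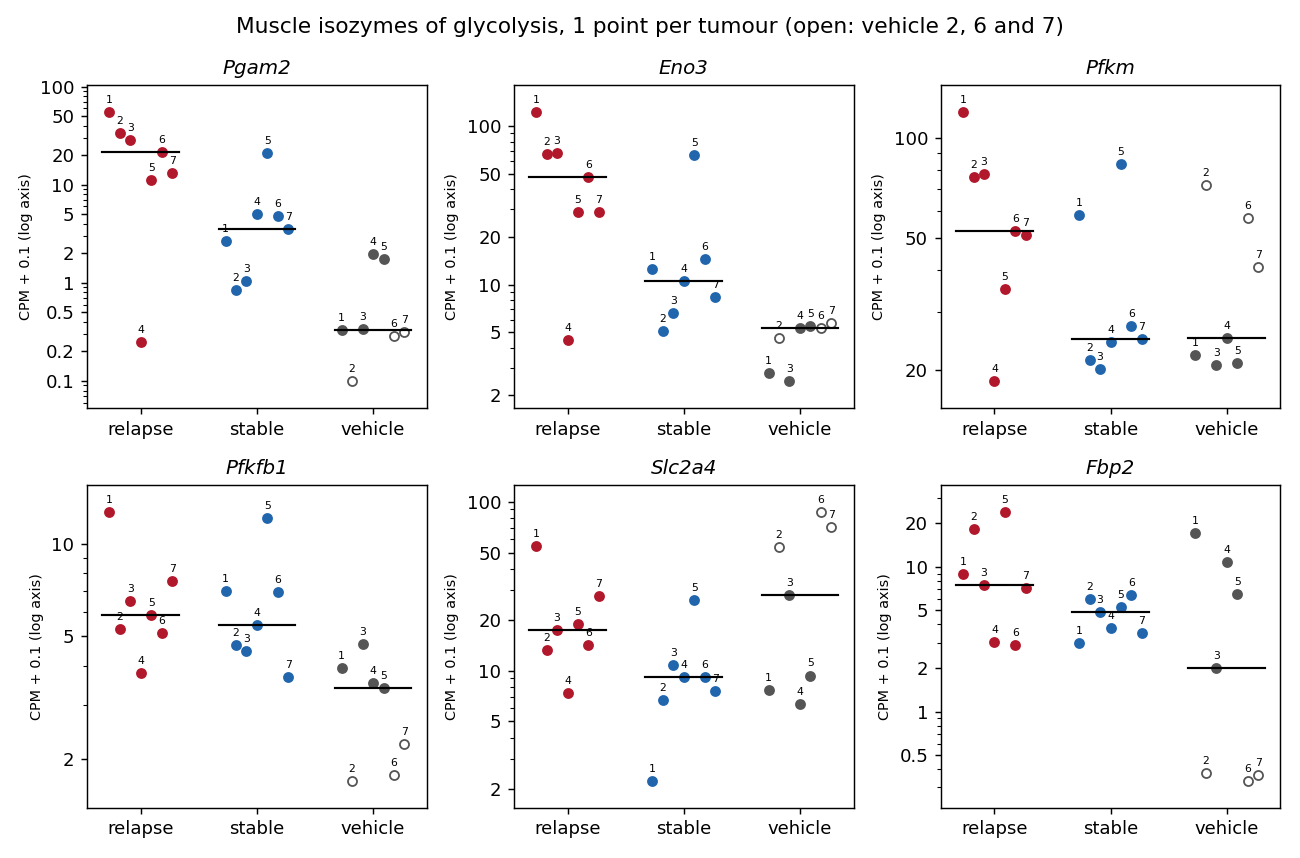
CPM + 0.1 (y axis, log axis) of the 6 muscle isozymes in relapse, stable and vehicle tumours, 1 numbered point per tumour with the group median as a line; open points are vehicle 2, 6 and 7. Relapse 4 and stable 5 lie away from their groups for Pgam2 and Eno3, and the open points are the highest vehicle values of Slc2a4 and Pfkm and the lowest of Pfkfb1 and Fbp2.

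Levels per kilobase of the gene length given in the table allow isozymes to be set side by side. Of the enolase signal per kilobase, Eno3 held a median of 33.4% in relapse, 8.07% in stable and 3.85% in vehicle tumours, with 63.5% in relapse 1, 67.4% in stable 5 and 3.69% in relapse 4. Pgam2 held a median of 40.2% of the phosphoglycerate mutase signal in relapse tumours, 9.24% in stable and 0.58% in vehicle tumours. Pfkm held 19.6%, 9.28% and 6.91% of the phosphofructokinase signal, and Pfkl, the liver form, held the largest median share in each group with 59.0%, 66.8% and 60.0%. Aldoa, which encodes the aldolase of muscle and of most other tissues, held a median of 93.4%, 91.1% and 92.6% of the aldolase signal.

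Of 14 isozyme pairs compared as log2 ratios within each tumour in 3 comparisons, 3 of 42 tests passed the adjusted p under 0.05, by two-sided exact permutation tests with 7 tumours in each group. Pgam2 over Pgam1 was higher by 4.95 in relapse minus vehicle and by 3.40 in stable minus vehicle, and Eno3 over Eno1 by 3.36 in relapse minus vehicle, each with an adjusted p of 0.0490 in the exact permutation test. For Pgam2 itself, 6 relapse tumours and all 7 stable tumours exceeded the vehicle median. The 3 calls were close to the threshold: they held in 2, 3 and 2 of 18 alternatives in the same order. Summing counts per title code, or leaving out vehicle 2, 6 and 7, raises the smallest p that exact permutation can give. A lost call there says little about stability. Leaving out 1 tumour does not raise it, and of 14 such fits 1, 2 and 1 kept the calls in the same order. With a prior count of 0.5 and all tumours, all 3 calls were lost, each with an adjusted p of 0.0571 in the exact permutation test. Of the 39 ratios not called, those with the smallest p were Eno3 over Eno1 in stable minus vehicle (1.98) and Slc2a3 over Slc2a1 in relapse minus vehicle (1.17), each with an adjusted p of 0.0832 in the exact permutation test.

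Of the uptake genes expressed outside muscle and fat, Slc2a1 fell in stable tumours and no other difference from vehicle passed. Slc2a1 encodes GLUT1, the main glucose transporter of proliferating cells. Its level was 36 to 153 CPM in relapse tumours with a median of 73.6, 29.6 to 95.9 in stable tumours with a median of 76.5, and 70.1 to 189 in vehicle tumours with a median of 131. Every treated tumour except relapse 2 had less than the vehicle median, and stable and vehicle tumours overlapped only through vehicle 6. Slc2a1 fell by 0.96 ± 0.29 in stable minus vehicle (edgeR adjusted p = 0.0330), a call kept in 15 of 23 alternatives, among them the fit without vehicle 2, 6 and 7 (-1.2, adjusted p = 0.0375). Summing the counts of tumours with the same code ended it (-1.05, edgeR adjusted p = 0.156), as did a fit of the 2 groups alone (0.0546) and leaving out stable 3, 5 or 6 or vehicle 3, 5 or 7 in turn, where the value was -0.83 to -0.96 and the adjusted p 0.0514 to 0.0657. In relapse minus vehicle the difference was -0.73 ± 0.29 with an edgeR adjusted p of 0.106, and without relapse 2 it was -0.98 with an adjusted p of 0.0309. Summed over Slc2a1, Slc2a3 and Slc2a4, the transporter signal was 26.5 to 65.4 CPM per kilobase in relapse tumours. It was 20.2 to 38.3 in stable and 53.5 to 82.7 in vehicle tumours, which did not overlap. This gap includes Slc2a4, the muscle and fat form, at 17.5, 28.2 and 22.8 CPM per kilobase in vehicle 2, 6 and 7. Slc2a1 alone did overlap, with 27.25 CPM per kilobase in vehicle 6 and up to 37.3 in stable tumours. The share of all genes without overlap was not counted. Slc2a3, the high-affinity transporter GLUT3, had the lowest level per kilobase of the 36 genes, a median of 0.47 CPM per kilobase over all tumours, and no called difference.

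Among the hexokinases, which trap glucose by phosphorylation, Hk2 is the form known to be induced in tumours and insulin-sensitive tissue. It had 63.1 to 158 CPM in relapse tumours with a median of 100.2, 44.9 to 75.2 in stable tumours with a median of 60.3, and 29.3 to 154 in vehicle tumours with a median of 125. Vehicle 1, 3, 4 and 5 had 125 to 154 CPM and lay above every stable tumour, while vehicle 2, 6 and 7 had 55.4, 29.3 and 71.6. The fall of 0.74 ± 0.29 in stable minus vehicle did not pass (edgeR adjusted p = 0.0840), but without vehicle 2, 6 and 7 it was 1.17 and called, with an adjusted p of 0.00390. All 7 relapse tumours lay above the stable median, and the difference of 0.78 ± 0.29 in relapse minus stable had an unadjusted p of 0.0127 and an edgeR adjusted p of 0.990. Relapse minus vehicle was 0.04 ± 0.28. Hk1, the form of most tissues, differed by -0.47 ± 0.18 in relapse and by -0.50 ± 0.18 in stable minus vehicle, with edgeR adjusted p of 0.0956 and 0.0665; without stable 1, the highest stable tumour, the second was -0.67 and called with an adjusted p of 0.00613. Hk3, a form of myeloid cells, had medians of 11.8, 11.7 and 5.01 CPM in relapse, stable and vehicle tumours and no called difference.

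Pfkp had 70.1 to 127 CPM in relapse tumours with a median of 92.9, 75.1 to 214 in stable tumours with a median of 99.3, and 122 to 304 in vehicle tumours with a median of 160. All relapse tumours were below the vehicle median and so were the stable tumours except stable 1, and relapse and vehicle tumours overlapped through relapse 4 and vehicle 4. It fell by 1.15 ± 0.25 in relapse minus vehicle and by 0.91 ± 0.25 in stable minus vehicle (edgeR adjusted p of 0.00733 and 0.0202). Without vehicle 2, 6 and 7 the values were -0.86 and -0.61, with adjusted p of 0.0740 and 0.178. The call in stable tumours was also lost without vehicle 2 or 7 and in a fit of the 2 groups alone. Of the 50-base windows of Pfkp transcripts, 15.4% also occur in transcripts of Pitrm1, so that a share of its reads could be counted for either gene. Pfkl and Gpi1, the glucose-6-phosphate isomerase, had no called difference.

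Pfkfb3 makes fructose 2,6-bisphosphate with high kinase activity in proliferating cells. It had 64.6 to 129 CPM in relapse tumours with a median of 92.6, 37.3 to 102 in stable tumours with a median of 93.4, and 99.0 to 224 in vehicle tumours with a median of 124. It fell by 0.64 ± 0.21 in stable minus vehicle (edgeR adjusted p = 0.0434), a call kept in 10 of 23 alternatives; without vehicle 2, 6 and 7 it was -0.51 with an adjusted p of 0.166. It was also lost without stable 2, 3, 4, 6 or 7 or vehicle 2, 5 or 7 in turn. Stable 1 was the lowest of all tumours and vehicle 7 the highest. In relapse minus vehicle the difference was -0.53 ± 0.21 with an edgeR adjusted p of 0.102. Pfkfb2 and Pfkfb4, forms of heart and testis that many tissues express, differed by at most 0.15 on the log2 scale and were not called.

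**Figure D4:**
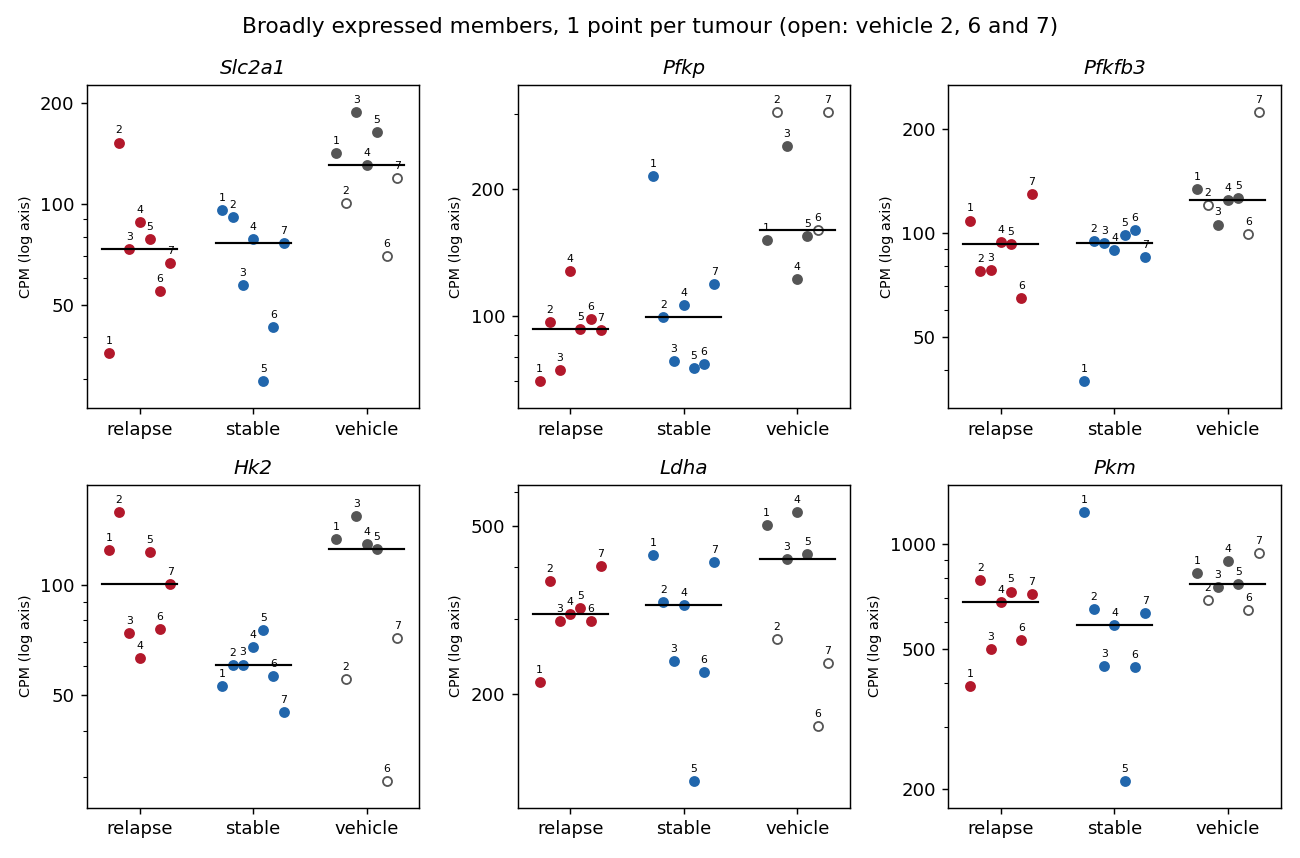
CPM (y axis, log axis) of Slc2a1, Pfkp, Pfkfb3, Hk2, Ldha and Pkm in relapse, stable and vehicle tumours, 1 numbered point per tumour with the group median as a line; open points are vehicle 2, 6 and 7. Stable tumours lie at 44.9 to 75.2 CPM for Hk2, below all filled vehicle points, and stable 5 is the lowest of the stable tumours for Slc2a1, Ldha and Pkm.

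In lower glycolysis, of 12 genes the 2 muscle isozymes rose in both comparisons with vehicle and none of the other 10 was called. Aldoa had the highest level per kilobase of the 36 genes, with a median of 265 CPM per kilobase over all tumours, followed by Pkm with 195 and Ldha with 165. Aldoa had 353 to 672 CPM in relapse, 304 to 609 in stable and 337 to 602 in vehicle tumours, with differences of 0.05 ± 0.17 in relapse minus vehicle and -0.30 ± 0.17 in stable minus vehicle. Its difference of 0.36 ± 0.17 in relapse minus stable had an unadjusted p of 0.0442 and an edgeR adjusted p of 0.990. Tpi1, Pgk1, Pgam1, Eno1 and Pkm, each a step of lower glycolysis, had negative differences in both comparisons with vehicle, from -0.15 to -0.46, and none passed. Aldoc, the brain aldolase, Bpgm, which makes 2,3-bisphosphoglycerate, and Eno2, the neuronal enolase, were not called either, with Eno2 at -0.53 ± 0.37 in relapse and -0.82 ± 0.37 in stable minus vehicle.

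Pkm encodes pyruvate kinase, and a gene count cannot tell its M1 and M2 splice forms apart. Relapse tumours had 393 to 788 CPM with a median of 680, stable tumours 211 to 1236 with a median of 586, and vehicle tumours 647 to 943 with a median of 769. The differences were -0.35 ± 0.25 in relapse and -0.39 ± 0.25 in stable minus vehicle (edgeR adjusted p of 0.397 and 0.302); without stable 1 the second was -0.67 with an adjusted p of 0.0313. Stable 5 was the lowest and stable 1 the highest of all 21 tumours. In stable 5, Pgk1, Pgam1, Eno1 and Ldha were also at their lowest of all tumours, with 18.3, 16.4, 50.8 and 124 CPM, beside the muscle marker sum of 18166 CPM. Relapse 1, with the highest marker sum, had the lowest relapse values of Pgk1, Pgam1, Eno1, Pkm and Ldha. Other tumours did not follow this order. Relapse 2, with a marker sum of 15391 CPM, had the highest relapse values of Pgk1, Pgam1 and Pkm, at 80.8, 81.7 and 788 CPM. Vehicle 6, with a sum of only 327 CPM, had 28.0 CPM of Pgk1 and 31.0 CPM of Pgam1. The part of the muscle content in these low values was not tested.

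Gapdh, the glyceraldehyde-3-phosphate dehydrogenase and a common reference gene, had only 15 to 54 counts per tumour in the table. Its level was 1.17 to 2.58 CPM in relapse, 1.08 to 2.13 in stable and 1.49 to 2.38 in vehicle tumours, and its median of 1.01 CPM per kilobase compares with 80.9 for Tpi1, the triosephosphate isomerase that supplies its substrate. Of the 50-base windows of Gapdh transcripts, the length of the reads, 58.4% also occur in transcripts of 222 other genes, chiefly Gm7336 with 58.2%. Windows were likewise shared for Pgk1 (68%), Eno1 (49.5%), Pgam1 (41.5%), Pfkfb2 (25%), Gpi1 (24.5%), Pkm (23.7%) and Ldhb (21%), and for 0% of Pgam2, Eno3, Slc2a4 and Hk2. No source used here says how reads matching more than 1 gene were treated, so that the levels of the shared genes are uncertain, and comparisons between isozymes such as Eno3 over Eno1 carry that limit. Group differences of Gapdh were within -0.19 and 0.10 and were not called.

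At the end of the pathway, Ldha, the lactate dehydrogenase subunit that favours lactate formation, had 213 to 401 CPM in relapse tumours with a median of 308, 124 to 427 in stable tumours with a median of 324, and 168 to 540 in vehicle tumours with a median of 416. Every treated tumour except stable 1 had less than the vehicle median, and the differences of -0.21 ± 0.26 and -0.30 ± 0.26 were not called. Vehicle 2, 6 and 7 were the 3 lowest vehicle tumours for Ldha, with 270, 168 and 237 CPM. Slc16a3, the lactate exporter MCT4, had 7.57 to 32.3 CPM in relapse, 3.13 to 25.1 in stable and 1.54 to 35.6 in vehicle tumours, again with vehicle 2, 6 and 7 lowest of vehicle at 7.91, 1.54 and 6.39. Ldhb and Slc16a1, which encode the other lactate dehydrogenase subunit and the lactate carrier MCT1, were not called.

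Pyruvate dehydrogenase kinases shut the E1 subunit Pdha1 off and so limit the use of pyruvate in mitochondria. Pdk2 was higher by 0.55 ± 0.21 in relapse and by 0.41 ± 0.21 in stable minus vehicle, and Pdk3 differed by -0.79 ± 0.35 and -0.75 ± 0.35, with edgeR adjusted p from 0.0975 to 0.194, so that neither was called. Without stable 1, which had the highest Pdk3 of all tumours, Pdk3 was at -1.18 in stable minus vehicle and called (edgeR adjusted p = 0.00966). Pdk1 and Pdha1 differed by at most 0.17. With all tumours, 0 of the 8 genes of lactate and pyruvate handling were called in the 3 comparisons; 2, 1 and 0 had an unadjusted p under 0.05 in edgeR, in relapse minus vehicle, stable minus vehicle and relapse minus stable.

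**Figure D5:**
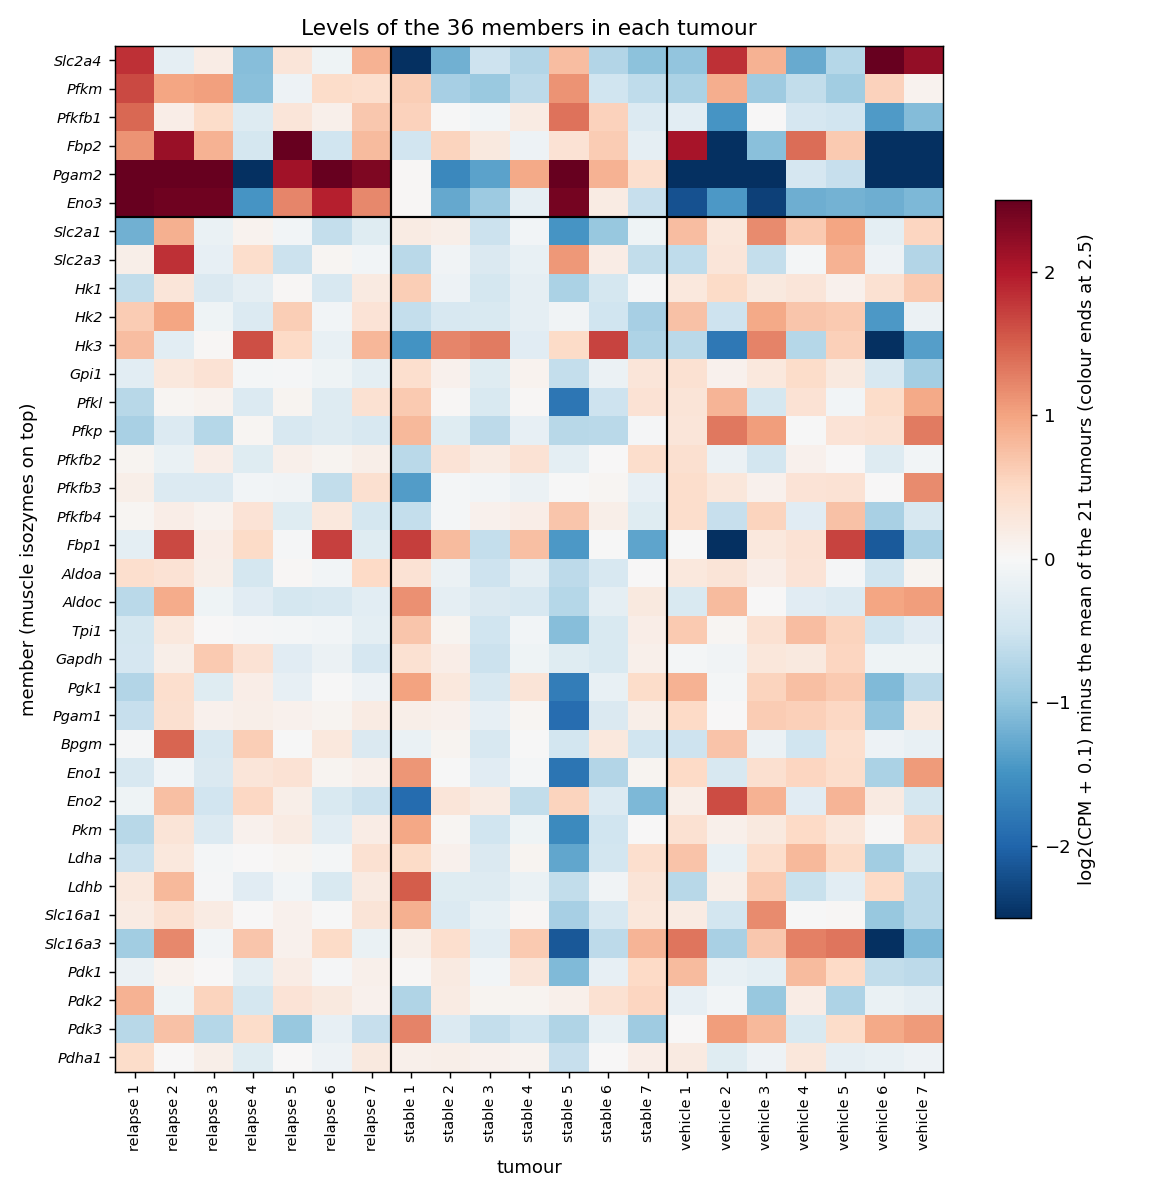
Log2(CPM + 0.1) of the 36 genes (rows, muscle isozymes on top) in the 21 tumours (columns, relapse, stable and vehicle from left to right), each row minus its mean over tumours, with colours ending at 2.5. The red block of Pgam2 and Eno3 spans relapse 1, 2, 3, 5, 6 and 7 and stable 5, and the blue cells of Pgk1, Pgam1, Eno1, Pkm, Ldha and Slc16a3 mark stable 5.

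Other genes of glucose metabolism were taken from a second list of 59 genes, of which 53 were tested. In relapse minus vehicle 4 rose and 3 fell, in stable minus vehicle 0 rose and 4 fell, and in relapse minus stable 0 were called (edgeR, with 4 at an unadjusted p under 0.05). Over all genes tested, 5.42% rose and 5.8% fell in relapse minus vehicle, and 6.9% rose and 8.16% fell in stable minus vehicle. In relapse minus stable 0% were called. The median log2 fold changes of the 53 were -0.01, -0.07 and 0.12. Glycogen breakdown genes of muscle rose in relapse tumours: Pygm, the muscle glycogen phosphorylase, by 3.97 ± 0.92 and Phkg1, the catalytic subunit of muscle phosphorylase kinase, by 3.11 ± 0.77 (edgeR adjusted p of 0.00970 and 0.0145); without vehicle 2, 6 and 7 they were 4.25 and 3.70, with adjusted p of 0.0610 and 0.0524. Pygm had a median of 71.6 CPM in relapse, 9.12 in stable and 3.73 in vehicle tumours, with 0.998 in relapse 4 and 101 in stable 5. Pdk4, a pyruvate dehydrogenase kinase that FOXO factors are known to induce, rose by 1.94 ± 0.48 in relapse tumours (edgeR adjusted p = 0.0143) and was called in all 23 alternatives. In stable minus vehicle Pdk4 was higher by 1.29 ± 0.47 and was not called (edgeR adjusted p = 0.0700). It had 50.7 to 237 CPM in relapse, 14.3 to 190 in stable and 17.4 to 72.5 in vehicle tumours.

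Hif1a encodes the oxygen-regulated subunit of HIF-1, a factor known to activate many glycolysis genes and itself controlled mainly through protein stability. It had 198 to 280 CPM in relapse tumours with a median of 208, 145 to 329 in stable tumours with a median of 209, and 336 to 563 in vehicle tumours with a median of 418. No treated tumour reached the level of any vehicle tumour, the closest being stable 1 with 329 CPM and vehicle 4 with 336 CPM. The share of all genes without such overlap was not counted. Hif1a fell by 0.93 ± 0.16 in relapse minus vehicle and by 1.02 ± 0.16 in stable minus vehicle (edgeR adjusted p of 0.00218 and 0.000697), and both calls were kept in all 23 alternatives, those without vehicle 2, 6 and 7 included. Myc, which also activates glycolysis genes, rose by 0.94 ± 0.28 in relapse tumours (edgeR adjusted p = 0.0353), a call kept in 12 of 23 alternatives; without vehicle 2, 6 and 7, the lowest vehicle tumours, it was 0.50 with an adjusted p of 0.213. Leaving out relapse 1, 2, 3, 5 or 6 or vehicle 2, 6 or 7 in turn also ended it. Slc2a12, a further glucose transporter, and Pygb, the brain glycogen phosphorylase, fell in both comparisons, but without vehicle 2, 6 and 7 their differences were smaller (-1.15 and -0.16 in relapse minus vehicle) and not called. Gys1, the muscle glycogen synthase, fell by 0.41 ± 0.12 in stable minus vehicle (edgeR adjusted p = 0.0330), a call kept in 13 of 23 alternatives. Summing the counts of tumours with the same code ended it (adjusted p = 0.230), as did upper quartile scaling (0.0741), a fit of the 2 groups alone (0.0870), and leaving out stable 2, 3 or 6 or vehicle 3, 4, 5 or 7 in turn.

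The core letters of the hypoxia response element, ACGTG, on either strand (CACGT when read on the other strand, and part of the E-box CACGTG), were searched in the promoter windows after Hif1a was seen to be lower. They stood in a window of 19 of the 34 members with a window, and in 21.8% of 27025 genes; by window the counts were 23 of 53, and 19.6% of 32851. Base composition was not matched between these windows, and Slc2a3 and Slc2a4 had no entry in the table. Slc2a1, which fell in stable tumours, and Hk2 are shown with the letters in capitals.
Slc2a1 (chr4:119108495-119108794, plus strand): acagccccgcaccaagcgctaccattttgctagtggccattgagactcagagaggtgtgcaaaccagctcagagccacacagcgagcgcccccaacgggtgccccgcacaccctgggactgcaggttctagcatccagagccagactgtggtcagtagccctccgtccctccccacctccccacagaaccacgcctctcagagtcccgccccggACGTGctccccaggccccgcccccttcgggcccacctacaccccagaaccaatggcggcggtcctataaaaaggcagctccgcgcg
Hk2 (chr6:82774405-82774704, minus strand): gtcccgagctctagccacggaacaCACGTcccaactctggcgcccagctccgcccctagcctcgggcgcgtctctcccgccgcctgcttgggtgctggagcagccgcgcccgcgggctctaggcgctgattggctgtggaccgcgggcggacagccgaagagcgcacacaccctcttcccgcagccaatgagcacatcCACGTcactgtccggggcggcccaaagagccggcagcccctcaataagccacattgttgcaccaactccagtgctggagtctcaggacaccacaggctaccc
In Slc2a1 the match begins 36 bases before the start site. Of the 19 members with the letters, Slc2a1 and Pfkfb3 fell in stable tumours and the other 17 were not called, and Pfkp, which fell in both, had none in its window.

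The genes whose results are given in most detail lie as follows in GRCm38.p6, from RefSeq gene positions matched by Entrez identifier for all 36 members. Pgam2 is at chromosome 11, 5801637 to 5803796, Eno3 at chromosome 11, 70653125 to 70662513, and Slc2a4 at chromosome 11, 69942286 to 69948216, so that Eno3 and Slc2a4 lie on the same stretch of that chromosome. Slc2a1 is at chromosome 4, 119108745 to 119137330, Hk2 at chromosome 6, 82725025 to 82774454, Pfkp at chromosome 13, 6579874 to 6649060, and Pfkfb1 at chromosome X, 150587445 to 150643878.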

How the data were processed

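The authors deposited 1 annotated table of raw read counts per gene for 21 tumours, per the file headers; per the labels' protocols the libraries were stranded polyA libraries read as 50-base single ends. Per the submitters' processing notes the build was mm10, and edgeR, Picard 2.9.2, SAMtools 1.3.1 and the aligner STAR 2.5.2a were used. The counting program and its strand setting are not stated. Rows were read from their last 25 cells, since 10202 of 24028 carry an extra leading cell. Genes were filtered with filterByExpr (minimum count of 10), scaled by TMM and tested with the quasi-likelihood test of edgeR 4.0.16 in R 4.3.3 over all 21 tumours, with Benjamini-Hochberg adjustment over 15792 genes; SEs come from the fold change and its F value. Levels are CPM with TMM scaling, or CPM per kilobase of the table's gene width. Isozyme ratios are log2 CPM differences with a prior count of 2, tested by exact permutation. The fit was tested on simulated data. Levels (every tumour for Pgam2 and Eno3, otherwise lowest, median and highest, with single tumours where they stand out) were given for members called in any comparison and for Slc2a1, Hk2, Pfkm, Pgam2, Eno3, Gapdh, Pkm and Ldha; of the second list, the called genes were named. Alternatives were DESeq2 1.42.0 (size factors and Wald test), upper quartile scaling, no filter, a fit of 2 groups, a replicate block, sums per title code, limma 3.58.1 voom with that code as a random effect, prior counts of 0.5 and 5, and left-out tumours. The members and lists were chosen with earlier results of these data known. Total counts were 13337848 to 24873844 per tumour; the limit given for a count of 0 covers counting error only, while the intervals of fold changes include the spread between tumours.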

Additional observations from a re-analysis of the deposited data

Results flagged for a closer look

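In each group of 7 tumours, a level (log2 CPM) was picked out where the gap between the highest or lowest tumour and the next one took up an unusually large share of the group's whole range. Among 108 groups of values (36 genes in 3 groups) 12 were picked out; chance picks out about 1 in 20.

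Stable 5, the stable tumour with the highest skeletal muscle marker sum, was picked out 3 times. It had the highest Eno3 of the stable tumours (65.7 CPM, a gap of 0.593 of the range), the lowest Pgam1 (16.4 CPM, 0.752) and the lowest Pdha1 (237 CPM, 0.787). Relapse 4, the relapse tumour with the lowest marker sum, had the lowest Pgam2 of its group (0.15 CPM, 0.706), and relapse 1, with the highest marker sum, had the lowest Pgam1 (41.1 CPM, 0.667). The part of muscle content in these values was not tested.

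Stable 1 had the lowest Pfkfb3 of the stable tumours (37.3 CPM, 0.824), the lowest Pdk2 (13.9 CPM, 0.638) and the highest Pdk3 (47.2 CPM, 0.674). Relapse 2 had the highest Slc2a3 of the relapse tumours (11.8 CPM, 0.589) and the highest Aldoc (126 CPM, 0.648). Of the vehicle tumours, vehicle 7 had the highest Pfkfb3 (224 CPM, 0.633) and vehicle 6 the lowest Pgam1 (31 CPM, 0.609). Both belong to the 3 that stood apart by high smooth muscle contractile genes.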

How the results depend on the processing

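Of 2484 refits of member fold changes, 2403 kept their direction where called and their side of the threshold, 74 lost a call, 7 gained one and 0 called values changed sign; 152 changed sign while called in neither analysis. All genes called in relapse minus vehicle numbered 1772, against 987 with the replicate block, 955 with counts summed per title code, 527 without vehicle 2, 6 and 7, and 1156 to 2060 with 1 tumour left out. In stable minus vehicle they numbered 2378, against 964 in a fit of the 2 groups, 1251 with the replicate block, 592 summed per code, 847 without the 3 vehicle tumours, and 1470 to 3272 with 1 tumour left out. Members called in relapse minus vehicle numbered 4, against 2 without the 3 vehicle tumours, 4 with the replicate block and 3 to 5 with 1 tumour left out. In stable minus vehicle they numbered 7, against 1 in the fit of 2 groups, 3 with the replicate block, 1 summed per code, 2 without the 3 vehicle tumours, and 1 (without vehicle 2) to 9 (without stable 1) with 1 tumour left out. In relapse minus stable 0 genes were called, against 6 with the DESeq2 Wald test and 0 to 4 with 1 tumour left out, 4 of them without relapse 4. Isozyme ratios called numbered 3, against 0 with a prior count of 0.5, 0 summed per code, 0 without the 3 vehicle tumours and 0 to 3 with 1 tumour left out; summed per code, exact permutation cannot give a p below 0.00833 (relapse minus vehicle) or 0.0286 (stable minus vehicle), so that these losses say nothing about stability, and the 3 differences were then 4.71, 3.97 and 3.44. Same-numbered tumours correlated above 0.1 in 3 of 21 pairs and best with their own number in 2 of 21, so that the numbers were not taken to pair tumours. The cause of the lost calls was not tested. Small counts limit Pgam2, Fbp1 and Gapdh.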
